A study of Mus musculus with 32 samples.

Results

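In the ribosome-associated RNA of 8 neuron populations of the mouse forebrain, 12 of 56459 measured features were low in the Grik neurons of the hippocampus while their mean levels in the 7 other populations lay within 2-fold of each other. They were chosen from the values themselves. A feature had to reach 1 CPM (the count scaled to the library's total count) in all 28 libraries outside Grik hippocampus. The highest of the 7 other group means had to be under 2 times the lowest, and the Grik mean at most 0.5 times that lowest mean. The level condition was met by 11681 features and the first 2 conditions together by 5798, so that the 12 make up 0.207% of those 5798, which are called evenly expressed here in this sense only. Among the 12, the highest other mean was between 1.44 and 1.97 times the lowest. Because the levels of all 8 groups entered the choice, the low level in Grik is described here and not tested. Membership depended on how libraries were scaled: 7 features met the rule with TMM factors, 6 of them among the 12, and 6 with DESeq2 size factors, 5 of them among the 12. GSMG0032502, GSMG0011254, GSMG0000960, GSMG0042994 and GSMG0008839 met it under all 3 scalings.

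Each group held 4 libraries, and every library is labelled wild type. The groups are Grik, CamK and SST hippocampus, and CamK, Scnn, PV, SST and VIP cortex. The labels give neither the age of the mice nor the transgenes that define the populations. Nothing in them says that the 4 libraries of a group came from separate animals, so p-values measure only the spread between libraries, which may be technical. Poly(A) RNA was made into stranded libraries and sequenced from both ends. From knowledge of the field the names stand for Cre driver lines in which ribosomes of the Cre-expressing cells are tagged and pulled down, so that a population is defined by where its driver is active and can be a mixture of cell types.

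As background, Grik4 encodes a kainate-type glutamate receptor subunit, and its driver is known for marking pyramidal neurons of hippocampal area CA3. These cells receive the mossy fibres of the dentate gyrus, excite each other through recurrent collaterals and project to area CA1. CamK and Scnn are likewise taken as excitatory populations, and PV, SST and VIP as classes of GABAergic interneurons. RNA bound to ribosomes reflects both how much of a transcript is present and how much of it is engaged by ribosomes, and the measurement does not separate these. The features carry identifiers that the files do not pair with gene names, and 0 of them occur in the reference annotation used here. No gene, function or sequence can therefore be given for any of the 12, and the labelled populations were not checked on marker genes.

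Deposited counts summed to between 107541048 and 110859184 in the 4 Grik libraries and between 100158438 and 186505391 over all 32. SST hippocampus replicate 1 had the highest total, and the next highest was 114153919. The smallest count behind any Grik value of the 12 features was 44. Low counts in the table pile up at even values, so the number of sequenced fragments behind a value may be smaller than the count.

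All 4 Grik libraries lay below all 28 other libraries for each of the 12 features, so the groups did not overlap for any of them. Among the 5798 evenly expressed features this held for 224, or 3.86%, and the rule favours it, so nothing is read from the count. The Grik mean was between 27.9% and 48.3% of the lowest other group mean, and between 2.66 and 4.89 times lower than the average of the 7 other means. Summed over the 12 features, Grik libraries held 104.4 to 113.6 CPM, and the lowest library of any other group, in CamK hippocampus, held 270.3 CPM. Most of these sums came from GSMG0008839 and GSMG0014324, with Grik means of 39.7 and 37.7 CPM, and the rule sets Grik lower. In bulk samples, fewer cells that carry a transcript and less of it per cell cannot be told apart.

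**Figure D1:**
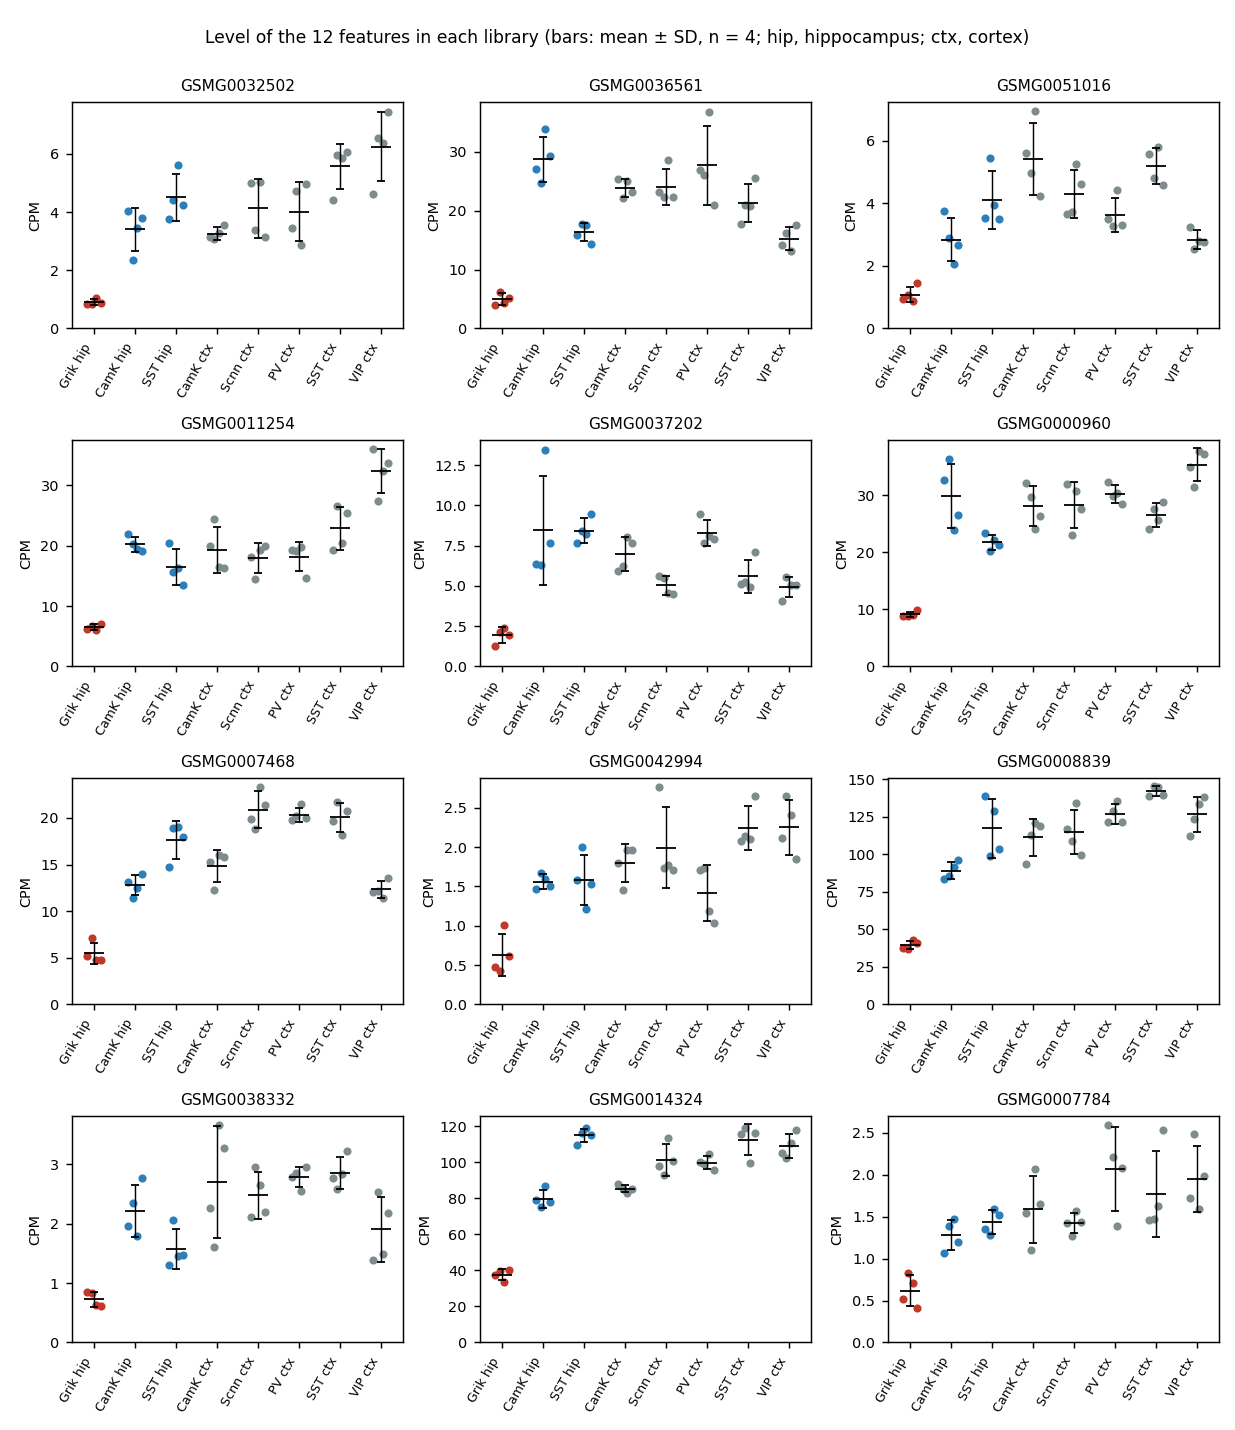
Level of each of the 12 features in CPM (vertical axes, from 0) in the 32 libraries, by population, with Grik hippocampus in red, the other hippocampal groups in blue and the cortical groups in grey. Points are libraries and black bars are the mean ± SD of 4. In every panel the 4 Grik points lie below the points of all other groups.

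GSMG0008839 and GSMG0014324 were the most abundant of the features. GSMG0008839 stood at 43.2, 40.7, 37.0 and 37.7 CPM in Grik replicates 3 to 6 (mean 39.7 ± 2.86, SD, n = 4), against 83.5 to 145.2 CPM in the 28 other libraries (median 120.9). It is also the longest of the 12, at 6995 bases, so that its level per length, 16.9 CPM per kb in the other libraries, was well below that of GSMG0014324. GSMG0014324 had 33.5, 40.02, 39.7 and 37.5 CPM in Grik (mean 37.7 ± 3.01, n = 4), against 75.1 to 119.25 CPM elsewhere (median 100.4). With 74.7 CPM per kb it had the highest level per length of the 12. For both features the 4 Grik libraries were close to each other, with coefficients of variation of 7.20% and 7.99%, and CamK hippocampus was the next lowest group, at 89.1 ± 5.73 and 79.6 ± 4.92 CPM (SD, n = 4 each).

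Another 4 features had intermediate levels. GSMG0000960 had 8.97, 9.83, 8.82 and 8.88 CPM in Grik replicates 3 to 6 and 20.3 to 37.8 CPM elsewhere (median 28.6). Its Grik libraries were the most alike of all 12 features, with a coefficient of variation of 5.21%. GSMG0011254 had 5.99, 7.08, 6.77 and 6.21 CPM in Grik and 13.4 to 36.0 CPM elsewhere (median 19.6). Its upper end came from VIP cortex, at 32.4 ± 3.64 CPM, while the next highest group, SST cortex, was at 22.9 ± 3.57 CPM (SD, n = 4 each). GSMG0036561 had 4.38, 5.23, 6.28 and 4.06 CPM in Grik and 13.2 to 36.8 CPM elsewhere (median 22.3). Here VIP cortex was instead the lowest of the other groups, at 15.3 ± 1.98 CPM, and CamK hippocampus the highest, at 28.7 ± 3.84 CPM. GSMG0007468 had 4.81, 4.78, 7.15 and 5.15 CPM in Grik and 11.4 to 23.3 CPM elsewhere (median 18.02). VIP cortex (12.3 ± 0.90 CPM) and CamK hippocampus (12.8 ± 1.06 CPM) formed its lower step among the other groups, with the SST, PV and Scnn means between 17.7 and 20.9 CPM and CamK cortex at 14.8 ± 1.76 CPM.

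The other 6 features were scarcer, and 5 of them averaged under 5 CPM in the other populations. GSMG0032502 showed the deepest drop of all. It had 1.06, 0.89, 0.853 and 0.836 CPM in Grik replicates 3 to 6 and 2.36 to 7.45 CPM elsewhere (median 4.32). Its Grik mean, 0.91 ± 0.10 CPM, was 27.9% of the lowest other mean, that of CamK cortex, and 14.6% of the highest, that of VIP cortex. GSMG0051016, the shortest at 742 bases, had 0.874, 1.44, 1.07 and 0.947 CPM in Grik and 2.06 to 6.93 CPM elsewhere (median 3.73). GSMG0037202 had 2.39, 1.99, 2.14 and 1.28 CPM in Grik and 4.05 to 13.5 CPM elsewhere (median 6.34). Its top value belonged to CamK hippocampus replicate 4 alone, since the other 3 CamK hippocampus libraries had 6.30 to 7.67 CPM.

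The 3 scarcest features lay close to the level condition. GSMG0038332 had 0.632, 0.612, 0.832 and 0.846 CPM in Grik replicates 3 to 6 and 1.31 to 3.66 CPM elsewhere (median 2.44). GSMG0042994 had 1.01, 0.613, 0.422 and 0.472 CPM in Grik and 1.04 to 2.76 CPM elsewhere (median 1.76). For this feature the gap between the groups was narrow: Grik replicate 3, at 1.01 CPM, came near PV cortex replicate 2, at 1.04 CPM. GSMG0007784 had 0.71, 0.409, 0.831 and 0.523 CPM in Grik and 1.06 to 2.59 CPM elsewhere (median 1.53). These 2 had the widest relative spread in Grik, with coefficients of variation of 42.5% and 30.4%. Over the 12 features the median was 18.6% in Grik and 13.3% in the other groups, and 8.35% in Grik over all 5798 evenly expressed features, which are more abundant. Each of the 4 Grik libraries was the lowest for 3 features. Replicates 3 and 4 were the highest for 4 features each, replicate 5 for 3 and replicate 6 for 1. GSMG0007784 no longer met the rule without Grik replicate 4 or without Grik replicate 6.

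As a description, the rule was also applied without 1 Grik library, and that library was then read. Without replicate 3 it chose 13 features, and the replicate 3 value was at most 0.5 times the lowest other mean in 10 of them. Without replicate 4 these numbers were 9 of 14, without replicate 5 also 9 of 14, and without replicate 6 10 of 11. The left-out library was below all 28 other libraries for every feature chosen in each of the 4 rounds. These 28 libraries and the remaining Grik libraries still made each choice. Most features chosen were the same in each round: 12, 11, 12 and 11 were among the 12 without replicates 3, 4, 5 and 6. The rounds are therefore no independent check. The share over all evenly expressed features was not computed, so the counts are a description only. The median ratio of the left-out library to the lowest other mean was 0.412, 0.4425, 0.425 and 0.377 for replicates 3, 4, 5 and 6. The highest ratio of a left-out library was 0.786, in replicate 4, so that every one was below the lowest other mean.

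Against single populations the low level of Grik differed from feature to feature. The median over the 12 of the Grik mean as a percentage of another group's mean was lowest against SST cortex, 28.02%, and highest against CamK hippocampus, 35.5%. In the edgeR model on TMM-scaled counts, the 12 features had log2 fold changes of -2.45 to -0.97 for Grik against CamK hippocampus (median -1.41) and of -2.14 to -0.95 for Grik against SST hippocampus (median -1.43). Over all 24555 features tested the medians were 0.02 and -0.07. GSMG0036561 stood farthest below CamK hippocampus, by a difference of -2.45 (SE 0.15), and GSMG0032502 farthest below SST hippocampus, by -2.14 (SE 0.19). The same libraries of Grik stand in both comparisons. At an adjusted p under 0.05 all 12 were lower in each, where 15.8% and 23.9% of all tested features were, and against the mean of the 7 other groups all 12 were lower, where 24.5% of all tested features were. The choice of the features fixes these counts, and nothing is read from them.

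**Figure D2:**
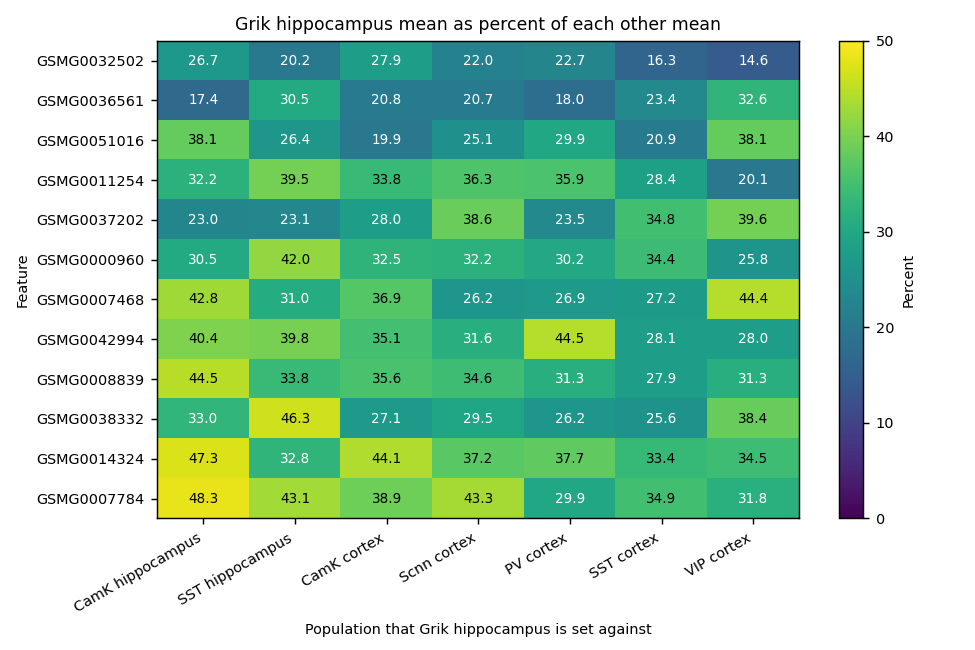
Mean CPM in Grik hippocampus as a percentage of the mean CPM in each other population (columns) for each of the 12 features (rows, ordered by the ratio to the lowest other mean), with n = 4 libraries per mean. Values run from 14.6% for GSMG0032502 against VIP cortex to 48.3% for GSMG0007784 against CamK hippocampus.

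The features form the lower end of a continuous range. Over the 5798 evenly expressed features the Grik mean was in the median 1.20 times the lowest other mean, with a 5th percentile of 0.836. Below it, 51 features had ratios over 0.6 and up to 0.7, 17 had ratios over 0.5 and up to 0.6, and 12 were at or below 0.5. Just inside the threshold were GSMG0007784, with a ratio of 0.483, and GSMG0014324, with 0.473. Just outside were GSMG0014513, with 8.34 ± 0.76 CPM in Grik and 16.5 CPM in the lowest other group, a ratio of 0.506, and GSMG0022616, with 5.27 ± 0.77 CPM in Grik and 10.2 CPM in the lowest other group, a ratio of 0.515. The deepest ratio was 0.279, that of GSMG0032502. A further 207 features met the level condition and were as low in Grik but varied 2-fold or more among the other populations. Of the features outside the 12 that met the level condition, GSMG0040508 had the profile over the 8 group means most like their average (Pearson r = 0.97 over 8 groups, on log2 CPM, given as a description). It was at 5.49 ± 0.96 CPM in Grik, but its other means ran from 39.4 CPM in CamK hippocampus to 127.3 CPM in SST cortex, which the evenness condition does not allow. GSMG0035704 followed (r = 0.96), at 24.3 ± 1.80 CPM in Grik and with other means of 34.8 to 38.7 CPM, a drop too small for the rule.

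**Figure D3:**
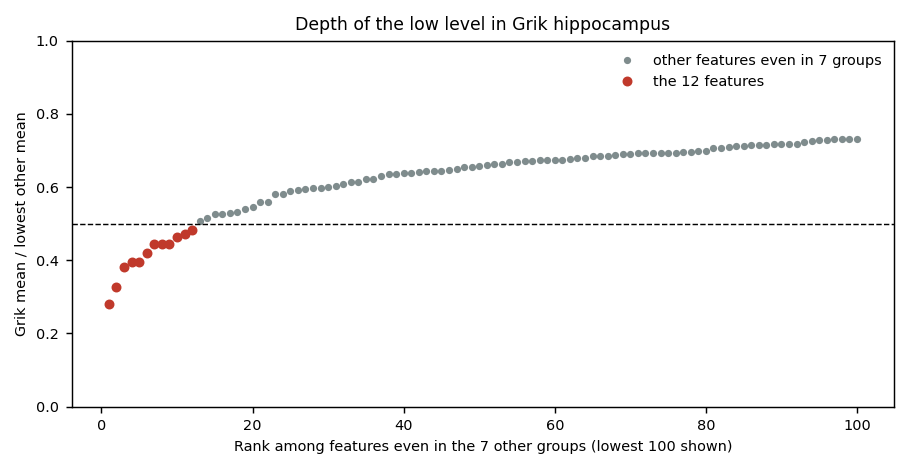
Ratio of the Grik hippocampus mean CPM to the lowest of the 7 other means (vertical axis) for the 100 evenly expressed features with the lowest ratios (horizontal axis, rank), with the 12 features in red and the threshold of 0.5 as a dashed line. The points run on from 0.279 to beyond the threshold with no break at 0.5.

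Applied to each population in turn, the same rule found 12 features low in Grik hippocampus alone, 46 in PV cortex, 5 in Scnn cortex, 4 in VIP cortex, 3 in CamK cortex, 2 in CamK hippocampus and 0 in either SST group. The mirrored rule, at least 2 times the highest of 7 even means, found 28 features in PV cortex, 9 in VIP cortex, 7 in Scnn cortex, 5 in Grik hippocampus, 1 each in CamK hippocampus and SST cortex, and 0 in SST hippocampus and CamK cortex. For Grik and PV cortex the low features were 0.207% and 0.72% of those meeting the level and evenness conditions. All these counts are on column totals, and only the low count of Grik was repeated under other scalings. CamK and SST were sampled in both regions, so a feature low in all CamK or all SST neurons cannot be low in 1 of their groups alone, while Grik, Scnn, PV and VIP were sampled in 1 region each.

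**Figure D4:**
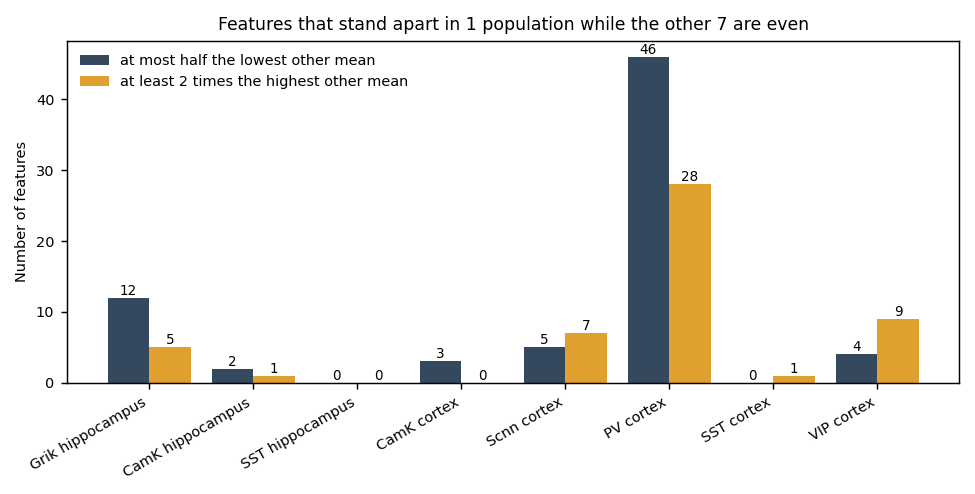
Number of features (vertical axis) with a mean at most 0.5 times the lowest other mean (dark bars) or at least 2 times the highest other mean (light bars) in 1 population while the other 7 are even. Grik hippocampus has 12 low features, second to PV cortex with 46, and 5 high features, fewer than PV (28), VIP (9) and Scnn cortex (7). Counts are on column totals.

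The lowest of the other populations was VIP cortex for 4 of the 12 features, CamK hippocampus and SST hippocampus for 3 each, and CamK cortex and PV cortex for 1 each. VIP cortex, CamK hippocampus and SST hippocampus carry a W in their titles, as Grik hippocampus does, and together they were the lowest for 10 of the 12 features. Among the 5798 evenly expressed features they were the lowest for 33.1%. They were also the highest for 7 of the 12, against 55.5% of the evenly expressed features. These counts and shares are on column totals. The shares were not computed with TMM, which lowers VIP values (mean factor 1.19 in VIP cortex), so nothing is read from the difference. What the W stands for is not stated in the labels, and its part in the low level was not tested. Within the groups that carry it, the 4 Grik libraries were below all 12 others for each of the 12 features. That follows from their lying below every library outside Grik, which the rule favours, so nothing is read from it.

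Outside Grik the features were not uniform, although the rule kept the 7 means within 2-fold of each other before TMM scaling and so bounds the differences below. At an edgeR adjusted p under 0.05, 7 of the 12 were lower and 1 was higher in VIP cortex than in the mean of PV and SST cortex, where 26.4% of all tested features were lower and 32.6% higher. Among the 5798 evenly expressed features, from which the 12 come, 52.5% were lower, so the count of 7 is near that share. Of these features 60.8% were called in either direction. The split depended on the scaling: with column totals 5 were lower and 3 higher, and of all called features 72.8% were higher, against 55.2% with TMM. GSMG0007468 had 11.4 to 13.6 CPM in the VIP cortex libraries, below the 18.1 to 21.7 CPM of all PV and SST cortex libraries (log2 fold change -0.95, SE 0.10, edgeR adjusted p = 1.24e-09). GSMG0036561 differed by -0.91 (SE 0.13, adjusted p = 4.78e-07), with 13.2 to 17.5 CPM in VIP cortex and 17.8 to 36.8 CPM in PV and SST cortex. GSMG0011254 went the other way (0.43, SE 0.12, adjusted p = 0.00254), with 27.4 to 36.0 CPM in VIP cortex, above the 14.6 to 26.5 CPM of PV and SST cortex. The median log2 fold change of the 12 was -0.27 with TMM and -0.03 with column totals, and that of all tested features was 0.15 and 0.39. Over the evenly expressed features the median was -0.23 with TMM, close to that of the 12. The W titles separate VIP cortex from PV and SST cortex, so population and title series cannot be told apart here.

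All CamK and SST libraries of the hippocampus carry a W in their titles and none of their cortical libraries does, so a difference by region cannot be told apart from one by W title in the next comparisons. In CamK neurons, 2 of the 12 were lower and 0 higher in CamK hippocampus than in CamK cortex. Of all tested features 19.2% were lower and 16.3% higher. Of the evenly expressed ones 16.9% were lower and 38.8% were called in either direction. GSMG0051016 had 2.06 to 3.75 CPM in CamK hippocampus, below the 4.22 to 6.93 CPM of CamK cortex (edgeR log2 fold change -0.99, SE 0.19, adjusted p = 9.75e-05). GSMG0008839 fell by 0.37 on the log2 scale (SE 0.09, adjusted p = 0.00232), with 83.5 to 95.8 CPM in CamK hippocampus and 93.7 to 120.5 CPM in CamK cortex, which overlap. In SST hippocampus 4 were lower and 1 was higher than in SST cortex, where 11.9% and 10.1% of all tested features were. Of the evenly expressed ones 11.2% were lower and 21.3% were called in either direction. The count of 5 dropped to 2 without SST cortex replicate 1, to 2 without SST hippocampus replicate 1 and to 1 without SST hippocampus replicate 2. GSMG0038332 had 1.31 to 2.07 CPM in SST hippocampus, below the 2.58 to 3.22 CPM of SST cortex (-0.85, SE 0.22, adjusted p = 0.00421). GSMG0011254 differed by -0.47 (SE 0.14, adjusted p = 0.013), with overlapping libraries, and the call was lost without SST hippocampus replicate 2 (adjusted p = 0.0518). GSMG0037202 was higher in SST hippocampus, at 7.64 to 9.495 CPM, above the 4.94 to 7.11 CPM of SST cortex (0.60, SE 0.19, adjusted p = 0.023). That call was lost when any of SST cortex replicates 1, 2 and 4 or SST hippocampus replicates 1 and 2 was left out, and over all alternatives its adjusted p ran from 0.00474 to 0.0878. Whether the differences between hippocampal and cortical libraries are unequal in CamK and SST neurons was not tested for these features.

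Among cortical populations, the mean of PV, SST and VIP was lower than the mean of CamK and Scnn for 3 of the 12 features and higher for 2. Of all tested features 29.2% were lower and 29.5% higher. Of the evenly expressed ones 38.9% were lower and 62.2% were called in either direction. Of the 5 cortical groups only VIP carries the W. With column totals 1 was lower and 5 higher, and of all called features 61.4% were higher, against 50.2% with TMM, so the split of the 12 rests on the scaling. Without CamK cortex replicate 3 or 4, or without a filter on low counts, 3 features were called. Most other libraries left out gave 4 in place of 5, also some outside the comparison, such as SST hippocampus replicate 5. DESeq2 size factors, DESeq2 and a filter of 1 CPM in at least 4 libraries gave 4 as well. GSMG0051016 had the largest decrease, at -0.50 on the log2 scale (SE 0.12, adjusted p in edgeR = 0.0007), and GSMG0036561 differed by -0.35 (SE 0.09, adjusted p = 0.00189, and 0.0514 with column totals). GSMG0032502 had the largest increase, 0.36 (SE 0.12, adjusted p = 0.0107). GSMG0011254 was higher by 0.21 (SE 0.09, adjusted p = 0.0426), with an adjusted p of 0.000793 to 0.114 over all alternatives. That call was lost without SST cortex replicate 1 or 3, CamK cortex replicate 3 or 4, Scnn cortex replicate 1 or 2, or VIP cortex replicate 1, 2 or 4.

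Within the excitatory neurons of the cortex, Scnn against CamK, GSMG0007468 was higher (0.39, SE 0.11, edgeR adjusted p = 0.00503) and GSMG0037202 was lower (-0.56, SE 0.19, adjusted p = 0.0203). Of all tested features 19.4% were higher and 22.3% lower. Of the evenly expressed ones 33.5% were lower and 38.9% were called in either direction. With column totals the call of GSMG0037202 was lost, and of all called features 57.0% were higher, against 46.5% with TMM. GSMG0007468 had 18.9 to 23.3 CPM in Scnn cortex, above the 12.3 to 16.0 CPM of CamK cortex. GSMG0037202 had 4.47 to 5.60 CPM in Scnn cortex, below the 5.90 to 8.06 CPM of CamK cortex. The count fell to 1 without CamK cortex replicate 3 or 4 or Scnn cortex replicate 3 or 4, and the adjusted p of GSMG0037202 ran from 0.011 to 0.12 over all alternatives. Its call was lost without CamK cortex replicate 1, 3 or 4, Scnn cortex replicate 1, 3 or 4, SST cortex replicate 1 or 4, SST hippocampus replicate 2 or 3, or VIP cortex replicate 1, 2 or 4. All 32 libraries share the estimate of the spread in this fit.

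**Figure D5:**
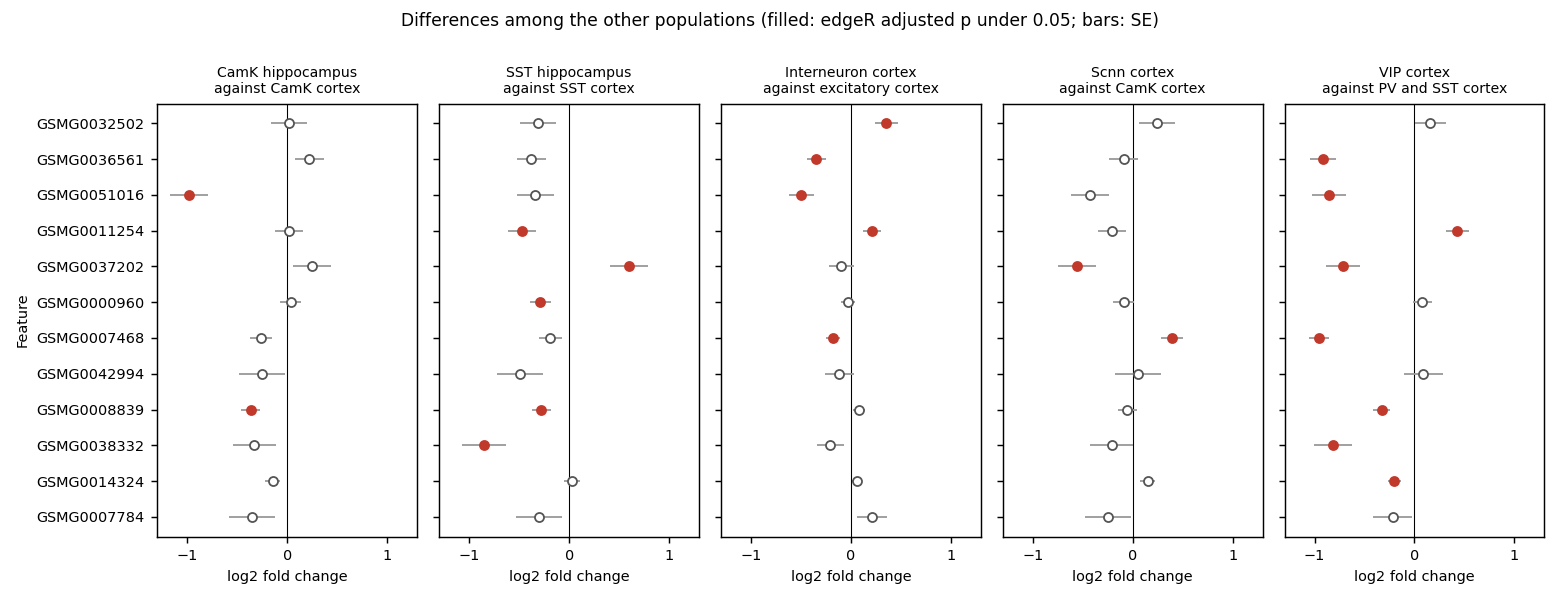
Log2 fold changes (horizontal axes, first-named over second-named group, TMM-scaled) of the 12 features (rows) in 5 comparisons that leave out Grik hippocampus. Bars are standard errors and filled points passed an edgeR adjusted p of 0.05, at most 8 of 12, in VIP cortex against PV and SST cortex.

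As a description with no test, the features were scarcer than most evenly expressed ones. Their deposited lengths ran from 742 to 6995 bases with a median of 1168, and the median of the 5798 features was 1303 (quartiles 808 and 2237). The average over the 7 other groups was 11.9 CPM in the median of the 12 and 33.9 CPM in the median of the 5798, and 10 of the 12 were below this second value. Per length, the medians were 7.65 and 24.98 CPM per kb in the libraries outside Grik hippocampus.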

How the data were processed

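The deposited table holds expected counts per feature, which need not be whole, and per the submitters' processing notes used GRCm38, FastQC, Picard, SAMtools and featureCounts. No source used here names the aligner, the annotation or the strand setting of the counting, so that overlapping or near-identical features are uncertain. A deposited length per feature was taken as bases. The table has 12 further columns of per-sample values that match no sample and were not used.

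CPM was computed from the authors' counts by column totals. For the tests, counts were rounded, filtered with filterByExpr (24555 features kept, all 12 among them) and fitted with edgeR 4.0.16 in R 4.3.3, with TMM, 8 group coefficients, 32 libraries and a robust quasi-likelihood F test, Benjamini-Hochberg adjusted over all features. A standard error is the log2 fold change over the square root of F. The procedure was checked on simulated counts. The features, comparisons and tests were chosen with earlier results of these data known.

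The naming rule covered the lowest ratios, the highest levels per length and the widest and narrowest spread, and with so few features all 12 are named, the others after their values were seen. Features outside the 12 are named as nearest the threshold or most alike in profile, and in each comparison without Grik up to 2 called features each way were described. Same-numbered libraries were not treated as pairs in the main fit. Their deviations were correlated over 0.1 in 3 of 47 same-numbered pairs, a check that cannot exclude a pairing. Alternatives covered scaling, filters, DESeq2 1.42.0, the replicate block, the rule's thresholds and each library left out.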

Additional observations from a re-analysis of the deposited data

Results flagged for a closer look

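In 9 of 96 groups of 4 libraries (12 features in 8 populations), 1 library stood apart from the other 3 by a gap above Dixon's critical value, where chance flags about 1 in 20. Of these, 2 lay in Grik hippocampus, and in both the library that stood apart was the highest: replicate 4 at 9.83 CPM for GSMG0000960, with the others at 8.82 to 8.97 CPM, and replicate 5 at 7.15 CPM for GSMG0007468, with the others at 4.78 to 5.15 CPM. SST cortex replicate 3 was high for 3 features, at 7.11 CPM for GSMG0037202 (others 4.94 to 5.22 CPM), 2.65 CPM for GSMG0042994 (others 2.07 to 2.15 CPM) and 2.54 CPM for GSMG0007784 (others 1.46 to 1.62 CPM). SST cortex replicate 2 was low for GSMG0032502, at 4.41 CPM against 5.86 to 6.06 CPM. Scnn cortex replicate 3 was high for GSMG0036561, at 28.5 CPM against 22.3 to 23.1 CPM. Scnn cortex replicate 1 was high for GSMG0042994, at 2.76 CPM against 1.71 to 1.78 CPM. PV cortex replicate 2 was low for GSMG0011254, at 14.6 CPM against 19.0 to 19.7 CPM.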

How the results depend on the processing

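Which features meet the rule depended on the scaling. With TMM in place of column totals 7 features met it, 6 of them among the 12, and with DESeq2 size factors 6, of which 5 were among the 12. The mean TMM factor was 0.912 in Grik hippocampus and 1.19 in VIP cortex, so that TMM raises Grik values and lowers VIP values. Under TMM 4 of the 12 were no longer even and 4 were no longer low enough, 2 of them both, and the Grik mean was at most 0.578 times the lowest other mean. A Grik mean of at most 0.4 times the lowest other left 5 features, and other means within 1.5 times left 1. Without 1 library 10 to 14 features met the rule. A floor of 2 CPM left 9, a floor on group means gave 13, and all 12 had no overlap of libraries.

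The log2 fold changes against the 7 other groups kept their sign, which the choice of the features fixes, in all 456 alternative values. The 4 that moved by more than the spread between Grik libraries all came from column totals, where the median of all features was -0.21, in place of -0.06 with TMM, and 38.1% of all calls were higher in Grik, in place of 51.9%. Against CamK hippocampus these shares were 41.6% and 51.9%, and against SST hippocampus 37.3% and 49.6%. Among comparisons without Grik, leaving out 1 library gave 1 to 6 called features for SST hippocampus against SST cortex, 3 to 5 for interneuron against excitatory cortex and 1 to 3 for Scnn against CamK cortex, and no filter on low counts gave 3 for interneuron against excitatory cortex. With the replicate block, 12 features were called in each Grik comparison, a count that the choice of the features fixes. In the comparisons without Grik 2, 5, 5, 2 and 8 were called, as without the block. Counts as low as 44 in a Grik library limit the precision for the scarcest features.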
